A study of Mus musculus with 12 samples.

Results

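The H3K27ac peak lists of fibro-adipogenic progenitors (FAPs) from old mdx mice were set side by side, TSA against vehicle. Trichostatin A (TSA) is an inhibitor of histone deacetylases, and mdx mice carry a dystrophin mutation and serve as a model of Duchenne muscular dystrophy. Both groups were C57Bl6 mdx mice of 12 months, so that the dystrophic genotype and the age are common to both. The TSA group received 0.6 mg/kg/day by daily injection into the peritoneum for 15 days, and the vehicle group received saline alone on the same schedule. Muscle cells were sorted by flow cytometry, and the sorting gate and the number of animals behind each library are not stated in the labels. Each group had 1 library, so there is no spread between replicates, no test between groups was made, and every difference below is one between these libraries. The peaks compared were those in the stretch of the genome that both lists cover, namely chromosomes 1 to 4 and chromosome 5 up to position 30850864 (build GRCm38). This gave 10840 TSA peaks and 8209 vehicle peaks, together 19049 of the 77135 complete peaks read from the 8 lists of the series, whose headers count 242820. The comparison bears on whether old dystrophic FAPs still change their histone acetylation under a deacetylase inhibitor.

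FAPs are mesenchymal cells that lie between muscle fibres. They support muscle stem cells after injury, and in dystrophic muscle they give rise to fat cells and to fibroblasts that lay down matrix. Acetylation of histone H3 at lysine 27 is placed mainly by the acetyltransferases p300 and CBP, marks promoters and enhancers in use, and is removed by deacetylases, the enzymes that TSA blocks.

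The promoters on which several results turn are shown first, as windows of 300 bases, from 250 before to 50 after the RefSeq start site (build GRCm38.p6), written 5′ to 3′ on the gene's own strand. Gli2 (an effector of Hedgehog signalling), Nes (nestin, an intermediate filament protein of progenitor cells) and Prdm16 (a regulator of brown and beige fat identity) carried a peak over this window with TSA and none with vehicle. Gbp2 and Ifi205, both induced by interferon, carried one in both libraries and had relatively fewer tags with TSA. Capitals mark the GC box GGGCGG on either strand in the first 3 windows and the interferon regulatory factor (IRF) motif, GAAA and again GAAA with any 2 bases between them, on either strand in the others.
Gli2 promoter, chr1:119053570-119053869, minus strand: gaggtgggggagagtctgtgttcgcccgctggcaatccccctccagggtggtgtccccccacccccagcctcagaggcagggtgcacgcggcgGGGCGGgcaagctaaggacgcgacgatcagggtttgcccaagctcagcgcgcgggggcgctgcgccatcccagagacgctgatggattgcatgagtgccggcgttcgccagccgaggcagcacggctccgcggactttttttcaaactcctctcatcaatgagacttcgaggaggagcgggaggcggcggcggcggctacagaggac
Nes promoter, chr3:87970843-87971142, plus strand: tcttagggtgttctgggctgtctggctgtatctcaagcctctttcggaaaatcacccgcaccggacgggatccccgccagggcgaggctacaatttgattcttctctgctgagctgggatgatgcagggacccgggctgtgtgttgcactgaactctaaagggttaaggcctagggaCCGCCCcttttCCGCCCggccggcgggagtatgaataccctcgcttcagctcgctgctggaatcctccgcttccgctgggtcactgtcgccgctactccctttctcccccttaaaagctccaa
Prdm16 promoter, chr4:154636824-154637123, minus strand: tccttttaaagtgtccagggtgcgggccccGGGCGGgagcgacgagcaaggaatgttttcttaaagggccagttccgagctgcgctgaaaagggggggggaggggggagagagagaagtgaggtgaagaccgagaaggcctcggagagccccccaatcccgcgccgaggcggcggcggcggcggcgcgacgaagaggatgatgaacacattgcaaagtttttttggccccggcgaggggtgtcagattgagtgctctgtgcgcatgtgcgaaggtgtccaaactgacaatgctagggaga
Gbp2 promoter, chr3:142620413-142620712, plus strand: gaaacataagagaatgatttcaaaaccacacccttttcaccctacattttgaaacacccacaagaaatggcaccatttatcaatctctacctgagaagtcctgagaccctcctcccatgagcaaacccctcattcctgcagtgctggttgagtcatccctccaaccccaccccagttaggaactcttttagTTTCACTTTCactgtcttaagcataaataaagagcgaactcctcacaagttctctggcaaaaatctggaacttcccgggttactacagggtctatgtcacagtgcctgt
Ifi205 promoter, chr1:174031706-174032005, minus strand: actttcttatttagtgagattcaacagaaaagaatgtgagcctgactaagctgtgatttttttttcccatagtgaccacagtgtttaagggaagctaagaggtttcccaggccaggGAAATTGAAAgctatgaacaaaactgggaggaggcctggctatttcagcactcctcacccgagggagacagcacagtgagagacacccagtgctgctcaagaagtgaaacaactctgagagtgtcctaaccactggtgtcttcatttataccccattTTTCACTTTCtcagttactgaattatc

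Among all 5629 RefSeq promoter windows of the stretch, GGGCGG was present in 264 of the 389 under a peak with TSA only (67.9%) and in 12 of the 19 under a peak with vehicle only (63.2%). It was present in 66.9% of the 2193 windows under a peak in both libraries, in 30.5% of the 3028 under no peak and in 47.4% of all. The windows marked with TSA only were thus as rich in this motif as those marked in both. Their median GC content was 62.3%, against 61.7% for windows marked in both and 51.7% for unmarked ones. The IRF motif was found in 7 of the 14 windows of interferon response genes, against 201 of the 5629 windows (3.57%). A match is a run of letters, not a known binding site.

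The cells were first checked against markers. Peaks were counted in the gene and 10 kb either side, so that a neighbour's peak can count. Of 11 FAP markers in the stretch, 9 had peaks in both libraries, among them Prrx1, a mesenchymal transcription factor, with 3041 tags with TSA and 1842 with vehicle, and Cd34, a surface protein of FAPs, with 2751 and 2459 tags in that order. Procr had a peak with TSA only (93 tags), and Lepr had none. Windows of genes of other cells held peaks too: 11 of 14 endothelial genes had peaks in both libraries, 6 of 14 macrophage genes, 2 of 9 lymphocyte genes, 5 of 14 muscle fibre genes and 2 of 4 muscle stem cell genes. Within 1 kb of a start site, 12 endothelial genes had a peak with TSA and 11 with vehicle, and 8 and 7 FAP markers did. In the same order these counts were 3 and 3 for macrophage, 0 and 0 for lymphocyte, 2 and 0 for fibre and 1 and 1 for stem cell genes. The muscle stem cell factors Pax7 and Pax3, the macrophage genes C1qa, C1qb, C1qc, Ptprc and Laptm5, and the fibre genes Ttn and Neb had no peak in either library. Of 16 neural genes, 0 had a vehicle peak and 3 had a weak TSA peak, the strongest of 108 tags at Kcna2. Over all 5491 genes, 3101 (56.5%) had peaks in both libraries, so the FAP and endothelial lists were both above that share. The other lists named here were below it, and the counts do not single out FAPs.

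Old TSA peaks held 2156341 tags over 9.87 Mb, against 1375708 tags over 6.92 Mb in old vehicle peaks. A tag is a sequenced fragment end, counted per peak by the authors without scaling, and the library totals are not given in the sources used here. Peaks were of like width, with a median of 669 bp with TSA and 644 bp with vehicle, and of like tag density, with a median of 171.9 tags per kb with TSA and 170.1 with vehicle.

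Acetylated chromatin covered more of the genome in the TSA library. Merging overlapping peaks gave 10967 regions, of which 3893 (35.5%) had a peak with TSA only, 535 (4.88%) had one with vehicle only, and 6539 (59.6%) had one in both. The TSA-only regions were small, with a median of 404 bp and 59.0 tags, and held 12.6% of the TSA tags; the vehicle-only regions had a median of 285 bp and 45.0 tags and held 1.94% of the vehicle tags. Their share among regions was alike on each chromosome, from 31.0% to 36.5% for TSA only and from 4.47% to 5.44% for vehicle only. Of TSA-only regions 60.9%, and of vehicle-only regions 60.7%, were within 10 kb of a region with a peak in both. The share to be had from the clustering of peaks alone was not computed.

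The density of the TSA-only regions was low among peaks, and how low depended on the scale. Their median was 149.7 tags per kb, against 171.9 over all TSA peaks, and vehicle-only regions had a median of 152.3, against 170.1 over all vehicle peaks. A shared region held a median of 1.4 times as many tags with TSA as with vehicle, and 1.17 times as many per bp. Depth and treatment cannot be told apart here, with 1 library a side. With their density divided by 1.17, 3703 of the 3893 TSA-only regions (95.1%) reached that of the weakest vehicle peak (101.1 tags per kb) and 2222 (57.1%) reached the 5th percentile of vehicle peaks (124.5 tags per kb). Divided by 1.4, which includes the greater width of TSA peaks, 2530 (65.0%) and 694 (17.8%) did. Both divisions were added after seeing the data. A region without a peak in a list is not a region without tags, and no fold is printed below for such a region by itself. The sums over genes, hairpins and domains do include such regions. They count no tags there for the library without a peak.

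**Figure D1:**
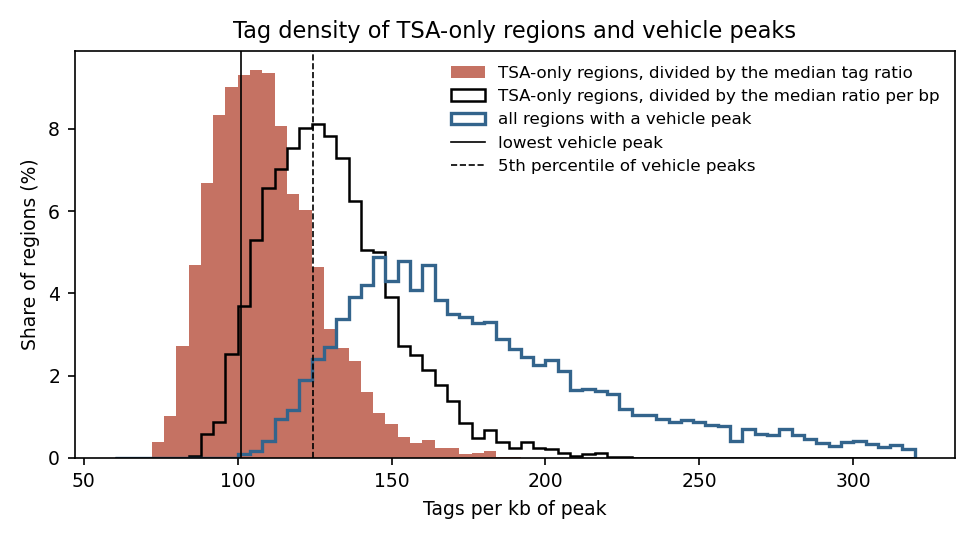
Tags per kb of peak (horizontal axis) for TSA-only regions divided by the median tag ratio (filled) or by the median ratio per bp (black outline), and for all regions with a vehicle peak (blue outline), each as a share of its class in % (vertical axis). The TSA-only regions centre at 107.2 tags per kb on the first scale, near the weakest vehicle peak (solid line, 101.1), and at 127.9 on the second, near the 5th percentile of vehicle peaks (dashed line, 124.5).

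Regions present in 1 library lay away from promoters. A start site lay within 1 kb of 17.9% of TSA-only regions (95% exact binomial interval 16.7 to 19.1), of 6.92% of vehicle-only regions (4.92 to 9.41) and of 45.0% of shared regions (43.8 to 46.2). These intervals, like all below, cover counting error only. TSA-only regions lay inside genes in 49.5% of cases and outside genes in 32.6%, against 58.5% and 34.6% of vehicle-only and 33.8% and 21.2% of shared regions. Among the 694 TSA-only regions past 124.5 tags per kb after division by 1.4, 24.1% were at promoters.

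**Figure D2:**
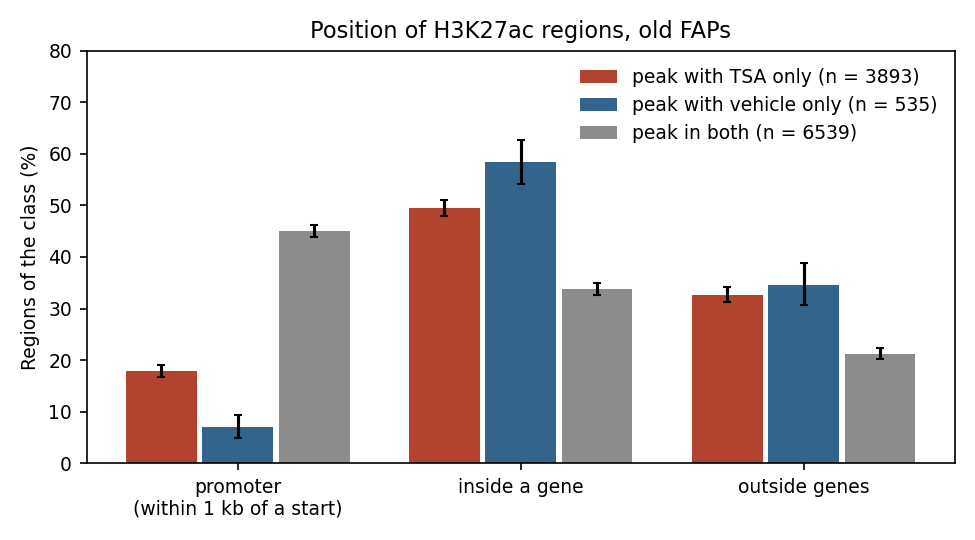
Share of regions (%) at promoters, inside genes and outside genes for regions with a peak with TSA only, with vehicle only and in both; bars are shares and error bars exact 95% binomial intervals, counting error only. Shared regions are at promoters in 45.0% of cases, TSA-only regions in 17.9% and vehicle-only regions in 6.92%.

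Where both libraries had a peak, the TSA peak was usually the wider one. TSA covered more bp in 5103 of 6539 shared regions (78.0%) and fewer in 1421, and in 882 regions several vehicle peaks met a single TSA peak, against 282 regions with the reverse. Tag ratios were centred on the median over shared regions, a log2 ratio of 0.48 (TSA over vehicle); per bp of peak that median was 0.23. After centring, the quartiles of the regions were -0.20 and 0.22. A centred ratio of 1 or more (2-fold) was reached by 195 regions (2.98%) and one of -1 or less by 73 (1.12%); 58 and 5 of these were at promoters. Centred on all tags in peaks these counts were 125 and 128, and per bp of peak 1 and 9, so that the excess of higher regions does not hold on those scales. Weak regions spread most when ranked by vehicle tags in 5 bins. The quartiles were -0.19 and 0.62 in the lowest bin (23 to 66 tags) and -0.17 and 0.05 in the highest (300 to 2691 tags). The medians were 0.19 and -0.06. Vehicle tags are also the denominator of the ratio, so counting error alone tilts these medians, and their fall is not read as a result.

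The shared region with the highest centred ratio, 2.34, lay outside genes, 612 bp from Gm29797, with 381 tags with TSA and 54 with vehicle. Those that followed lay mostly inside genes. A region inside F11r (a tight junction protein), at chr1:171440490-171442046, had 246 tags over 1557 bp with TSA. With vehicle it had 37 tags over 196 bp, a centred ratio of 2.25 (1.75 to 2.79). A pair of regions inside Rgs3, a brake on G protein signalling, had 258 and 286 tags with TSA, against 39 and 44 with vehicle. Others lay inside Lama5 (346 tags with TSA, 57 with vehicle), Rxra (218 and 37) and Brd3 (200 and 34), which encode a laminin chain, a retinoid receptor and a reader of acetylated histones. All of these regions also had far wider peaks with TSA, as in Lama5 (2340 bp with TSA, 387 bp with vehicle). Their ratios are thus of tags, not of tags per bp. The lowest ratio was inside Mecom, a transcription factor gene, at chr3:30243710-30245161 (-1.50, -1.87 to -1.13). It had 94 tags over 631 bp with TSA and 190 tags over 1452 bp with vehicle. Next came Gstm1, a detoxifying glutathione transferase, with 84 tags over 586 bp with TSA and 156 tags over 1241 bp with vehicle.

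**Figure D3:**
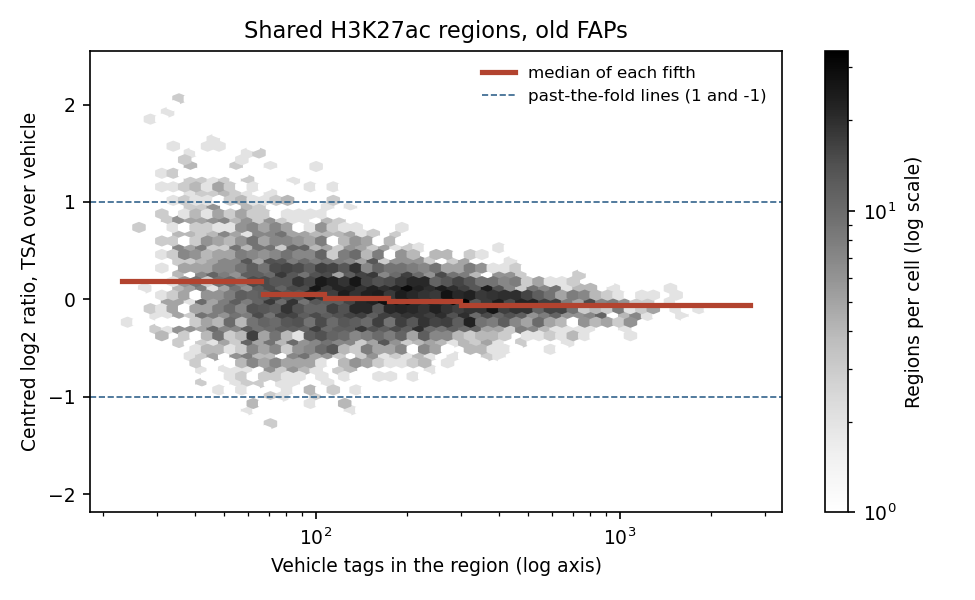
Centred log2 tag ratio, TSA over vehicle (vertical axis), against vehicle tags (log axis) for the 6539 shared regions; shading counts regions, thick lines are the medians in 5 bins by vehicle tags, and dashed lines stand at 1 and -1. Of these regions 195 lie at or above 1 and 73 at or below -1, against 125 and 128 when centred on all tags in peaks.

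To describe genes, tags in peaks were summed over each gene with flanks of 10 kb. The term relative tags stands for log2 of TSA over vehicle sums, 1 tag added to each, minus 0.48, and a gene counts as past the fold at 0.58 (1.5-fold) or more either way with 50 tags or more in both libraries together. A gene with a peak in 1 library only is counted as past the fold by that rule, through the added tag, and such genes are numbered or named as such in the lists. Windows link peaks to genes by position alone, neighbouring genes can share peaks, and in a mixed sample a change in the number of cells of a type and a change in acetylation per cell cannot be told apart. Of 5491 protein-coding genes, 3396 had a peak and 3319 passed the 50-tag limit, which a gene can also pass through its higher library. The covered length was longer with TSA in 2913 of these (87.8%) and shorter in 402 (12.1%). Relative tags were past the fold upwards in 652 (19.6%) and downwards in 27 (0.813%). Among the 3099 genes that passed with peaks in both libraries, 451 (14.6%) were past it upwards and 23 (0.742%) downwards, and the median was 0.11. Counting only tags in shared regions, 157 of 3089 genes were past it upwards and 27 downwards, with a median of 0.03. All lists of genes below are read against these shares.

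Promoters followed the same direction. A peak within 1 kb of a start site was present in both libraries for 2471 genes, with TSA only for 279 (5.08%), with vehicle only for 7 (0.127%), and in neither for 2734. Tags were summed over all TSA peaks within 1 kb of a start site. Among promoters marked with TSA only, the highest sums were at Kcne4, a potassium channel subunit (804 tags), and Bcar3, an adaptor of integrin signalling (382 tags). They were followed by Gli2 (373 tags), Il12a, a subunit of interleukin 12 (343 tags), and Tmem88b (329 tags). The Gli2 sum is of peaks of 246 and 127 tags, and the peak of 246 tags overlaps a vehicle peak further into the gene. A summed peak can thus be a wide one that comes near the start site where the vehicle peak stops short of it. The gene windows of Kcne4, Gli2 and Il12a held 525, 414 and 96 vehicle tags. The 7 marked with vehicle only were Cdh19, Ttc21b, Prr5l, Fndc11, Abhd18, Ifi44 and Fsbp, and Ifi44, an interferon-induced gene, had 60 tags there with vehicle.

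FAP identity genes had values on both sides of 0. Their median relative tags were 0.08 over 9 genes with peaks in both, near the 0.11 of all genes, and -0.19 in shared regions only. Prrx1 was at 0.24 (0.16 to 0.33) and Svep1, a matrix adhesion protein, at 0.23 with 2190 tags with TSA and 1335 with vehicle. Cd34 was at -0.32 (-0.40 to -0.24), and Dpp4, a surface peptidase of stromal progenitors, at -0.41 with 302 tags with TSA and 288 with vehicle. The gene past the fold with peaks in both was Twist2, a mesenchymal bHLH factor, with 490 tags with TSA and 153 with vehicle (1.19, 0.93 to 1.47). It was -0.10 in shared regions only.

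Fibrosis and matrix genes had a median of 0.11 over 25 genes with peaks in both, the same as all genes. Of 26 that passed, 2 were past the fold upwards and 1 downwards. Large collagen and microfibril loci were longer with TSA: Col5a1 covered 26746 bp with TSA and 15070 bp with vehicle, with 5085 and 2690 tags (0.44). Fbn1, the fibrillin of microfibrils, covered 21468 bp with TSA and 11845 bp with vehicle (3908 and 2012 tags, 0.48). Col3a1, a fibrillar collagen, was at 0.29, and Hspg2, the basement membrane proteoglycan perlecan, held the most tags of the list, 9343 with TSA and 6223 with vehicle (0.10). Past the fold were Col8a2 (321 tags with TSA, 139 with vehicle, 0.72) and Fmod, the collagen-binding fibromodulin (104 and 43 tags, 0.77). Col8a2 was at 0.07, Fmod at 0.18, Col5a1 at 0.26, Fbn1 at 0.03 and Col3a1 at -0.20 in shared regions only. Postn, the matrix protein periostin, had 147 tags with TSA and 131 with vehicle (-0.32, -0.67 to 0.04), and Tnn had no peak with TSA and 134 tags with vehicle. Col9a1, Col9a2, Col19a1, Col11a1, Tnc and Mmp9 had no peak in either library.

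Adipogenic genes stood above the median of all genes. Over 16 genes with peaks in both the median was 0.24 (0.15 in shared regions only), and 7 of 17 that passed were past the fold upwards, 1 of them with a peak in TSA only, and 0 downwards. Prdm16 had 590 tags with TSA and 193 with vehicle (1.13, 0.89 to 1.37); a peak of 38 tags lay over the promoter window shown above and another of 105 tags at 0.555 to 1.425 kb, both with TSA only, and the remaining peaks lay 299.1 to 303.3 kb into the gene in both libraries. Agpat2, an enzyme of triglyceride synthesis, had 1327 tags with TSA and 408 with vehicle (1.22, 1.06 to 1.38), but was at 0.21 in shared regions only, and its window shares peaks with that of its endothelial neighbour Egfl7. Aqp7, the glycerol channel of fat cells, had 1257 tags with TSA and 385 with vehicle (1.22, 1.06 to 1.39), and was at 0.52 in shared regions only. Before centring, both loci carried more than 3 times as many tags in the TSA list. Neither was past the fold in shared regions only. Angptl2, a secreted factor, was at 0.72, Hsd11b1, which regenerates active glucocorticoid, at 0.64, and Rbp7, a retinol-binding protein, at 1.10. Their values in shared regions only were 0.22, 0.14 and 0.13 in that order. Rxrg had a peak with TSA only (69 tags). Rxra, the partner of the fat cell regulator PPARγ, was just short of the fold at 0.56, with 2876 tags with TSA and 1398 with vehicle. The fatty acid binding protein gene Fabp4 was at 0.29, Cebpb, an early adipogenic factor, at 0.04, and Plin2, a lipid droplet coat protein, at -0.21.

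**Figure D4:**
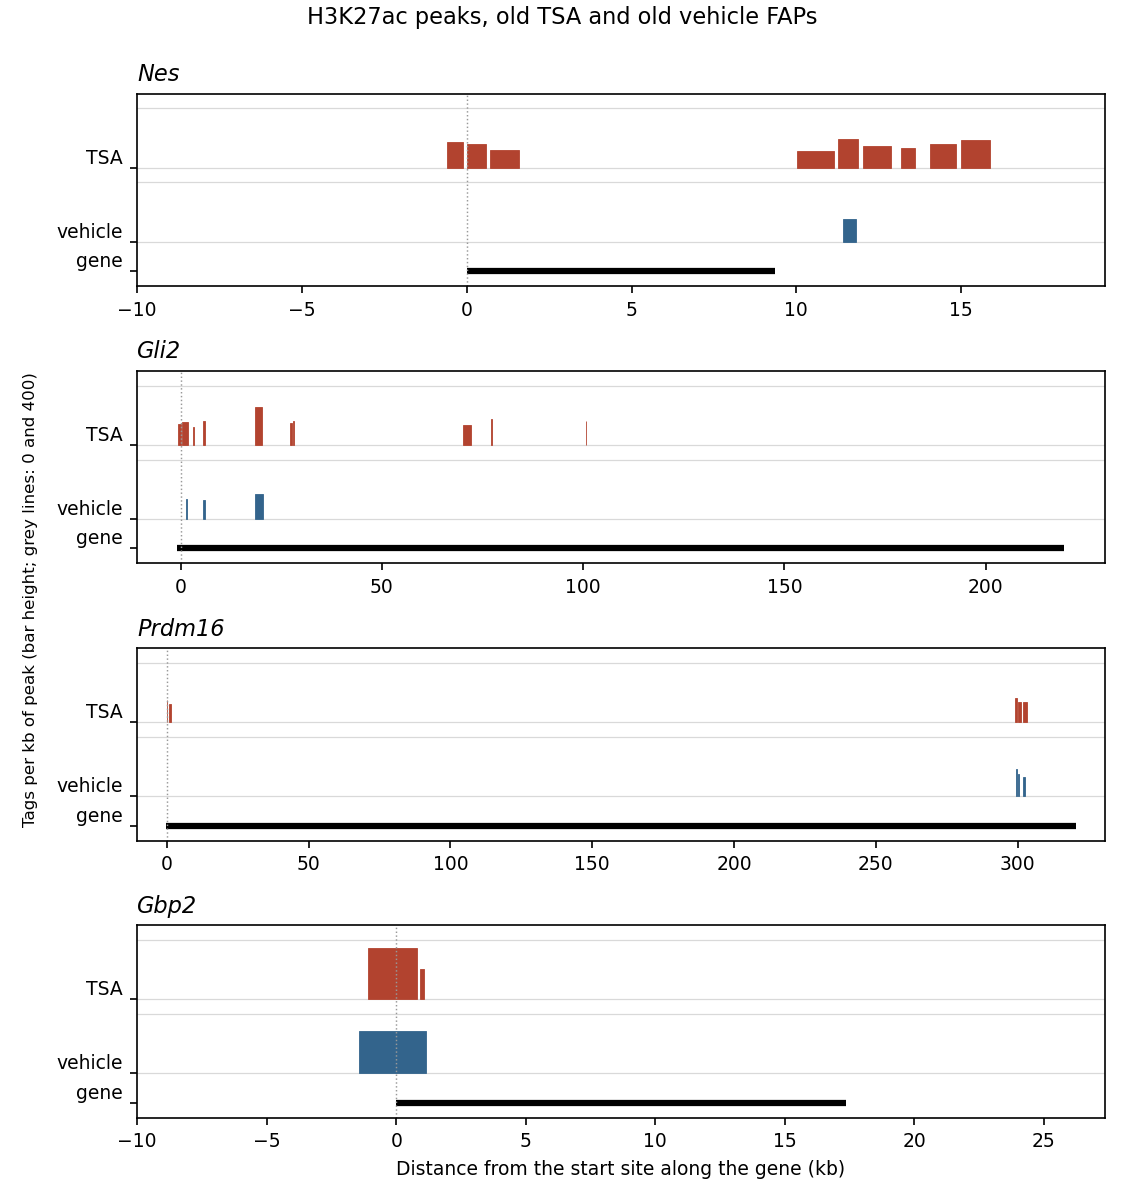
Peaks at 4 loci by distance from the start site along the gene (kb), TSA above vehicle; bar width is the peak, bar height its tags per kb, grey lines mark 0 and 400, and the black bar is the gene. Nes, Gli2 and Prdm16 have a peak over the start site with TSA only, while Gbp2 has 1 wide vehicle peak of 737 tags where TSA has peaks of 662 and 30 tags.

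Senescence and secretory genes lay near all genes, with a median of 0.13 over 16 genes with peaks in both. Of 17 that passed, 3 were past the fold upwards and 0 downwards. Cdkn2b, a cyclin-dependent kinase inhibitor, had 119 tags with TSA and 43 with vehicle (0.97, 0.47 to 1.53), while its neighbour Cdkn2a had no peak in either library. Cdkn2b was at 0.24 in shared regions only. Igfbp5, which binds insulin-like growth factors, had 511 tags with TSA and 199 with vehicle (0.87). Its promoter was marked with TSA only, with 206 tags in the peaks there, and the gene was at -0.12 in shared regions only. Bmp2 had a peak with TSA only (116 tags). Il6, the inflammatory cytokine, had 234 tags with TSA and 235 with vehicle (-0.49, -0.76 to -0.22). Fgf2, a mitogen for muscle stem cells, was at 0.35 with 1712 tags with TSA and 963 with vehicle.

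Cell cycle genes had a median of 0.01 over 11 genes with peaks in both, below all genes. Of 14 that passed, 5 were past the fold upwards, 3 of them with a peak in TSA only, and 0 downwards. E2f1 and E2f2, transcription factors of S phase entry, had 459 and 212 tags with TSA, against 183 and 69 with vehicle (0.84 and 1.12). E2f1 was at 0.70 and E2f2 at 0.14 in shared regions only. Bub1, Tpx2 and Kif14, genes of the mitotic spindle, had weak peaks of 51 to 63 tags with TSA only. Of the other mitotic genes, Aurka (-0.31), Cenpa (-0.24), Nuf2 (-0.19), Ccna2 (-0.14) and Kif2c (-0.09) were below 0, and Cdc25b (0.04), Cdc20 (0.06) and Ncaph (0.38) above it.

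Notch pathway genes were among the lists with the highest values, with a median of 0.34 over 10 genes with peaks in both (0.18 in shared regions only), and 5 of 12 past the fold upwards, 2 of them with a peak in TSA only, and 0 downwards. The receptor gene Notch1 had 2873 tags over 18000 bp with TSA and 1084 tags over 7760 bp with vehicle (0.92, 0.82 to 1.03). The ligand gene Dll4 had 1310 tags with TSA and 505 with vehicle (0.89, 0.74 to 1.04). Its promoter was marked with TSA only, with 170 tags in the peaks there. Hey1, a target of the pathway, had 438 tags with TSA and 177 with vehicle (0.82, 0.57 to 1.09). In shared regions only, Notch1 was at 0.41, Dll4 at 0.24 and Hey1 at 0.56, so that none of the 3 was past the fold there. The targets Heyl (357 tags) and Hes6 (79 tags) had peaks with TSA only, and Jag1, a second ligand, was at 0.54. The parts of γ-secretase, which cleaves the receptor, stayed near 0: Psen2 was at -0.08, Ncstn at -0.02 and Aph1a at 0.07. Dll4 and Heyl are also genes of vessels, and the endothelial genes beside them had a median of 0.23 over 11 with peaks in both (0.05 in shared regions only). The summed tags of that list were 73.0 of every 10000 tags in peaks with TSA and 68.0 with vehicle. Among its members Sox18 was at 0.45, Eng, a TGF-β co-receptor, at 0.38, Egfl7 at 0.37, Tek at 0.14 and Cd93 at -0.12. Nos3, the endothelial nitric oxide synthase, was past the fold at 0.63 (661 tags with TSA, 306 with vehicle) and at 0.29 in shared regions only. Gja4 had a peak with TSA only (104 tags), and Selp and Sele had none. The part of vascular cells in the Notch values was not tested.

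Wnt and Hedgehog genes had a median of 0.27 over 9 genes with peaks in both, and 3 of 10 were past the fold upwards, 1 of them with a peak in TSA only, and 0 downwards. Gli2 had 1408 tags over 8322 bp with TSA and 414 tags over 2683 bp with vehicle (1.28, 1.13 to 1.45). A peak over the start site was present with TSA only, and a second TSA peak, from 0.252 to 1.844 kb, overlapped a vehicle peak of 48 tags that began 1.31 kb from the start. The strongest peak, at 18.5 to 20.2 kb, was common to both, with 450 tags with TSA and 307 with vehicle. TSA peaks without a vehicle peak also lay at 27.1, 70.2, 77.1 and 100.6 kb. In shared regions only Gli2 was at 0.46. Fzd5, a Wnt receptor, had 157 tags with TSA and 66 with vehicle (0.76, and 0.26 in shared regions only). Rspo1, an enhancer of Wnt signalling, had a TSA-only peak of 54 tags. The ligand genes Shh, Ihh, Wnt6 and Wnt10a had no peak in either library. Genes of the TGF-β and BMP pathway lay near all genes: their median was 0.14 over 11 genes with peaks in both, and 0 of these 11 were past the fold; Bmp2, named above, had a peak with TSA only. The BMP receptor gene Acvr1 was at 0.38 and the repressor gene Ski at 0.32, while the receptor genes Tgfbr1 and Bmpr2 were at 0.04 and 0.11.

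The Hoxd cluster had a high median, 0.52 over 6 genes, and it was as high in shared regions only (0.52). All 6, of which 5 are Hoxd genes and the other is their neighbour Mtx2 (0.22), were above 0. Hoxd genes set position along limb and trunk, and their windows overlap, so they share peaks and are not 6 separate observations. Hoxd9 had 683 tags with TSA and 297 with vehicle (0.72, 0.52 to 0.92) and Hoxd8 had 1126 and 558 tags in that order (0.53, 0.38 to 0.68). Hoxd10, Hoxd3 and Hoxd4 were at 0.69, 0.51 and 0.48. The distal genes Hoxd11, Hoxd12, Hoxd13 and Evx2, and Hoxd1 at the other end, had no peak in either library.

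Interferon response genes had a low median, -0.14 over 13 genes (-0.20 in shared regions only, -0.07 in the upper 50% of each list by tags), against 0.11 over all genes. Of the 13, 7 lay below 0, against 996 of all 3099 genes (32.1%). Ifi205, a DNA-binding protein, had 637 tags over 2766 bp with TSA and 702 tags over 3611 bp with vehicle (-0.62, -0.78 to -0.47). Gbp2, a GTPase of host defence, had 692 tags over 2052 bp with TSA and 737 tags over 2553 bp with vehicle (-0.57, -0.72 to -0.42), just short of the fold. Ifi205 and Gbp2 thus had fewer tags with TSA in absolute number, in a library whose shared regions held more. Gbp5, Ifi204, Ifih1 (an RNA sensor) and Gbp3 lay between -0.29 and -0.20, though each had more tags with TSA before centring, as Gbp5 with 1097 against 959. Ifi44 had a peak with vehicle only. Ifnb1 at 0.35, Adar at 0.26 and Tnfsf10 at 0.21 went the other way, so that 2 of 14 were past the fold downwards, 1 of them (Ifi44) with a peak in vehicle only, and 0 upwards. In shared regions only Ifi205 was at -0.37, not past the fold. The list summed to 9612 tags with TSA and 7716 with vehicle, which were 44.6 and 56.1 of every 10000 tags in peaks. Covered length was longer with TSA in 11 of its genes and shorter in 3. Several of these genes went the other way in H3K9/14ac, as given below.

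Enzymes and readers of acetylation had a median of 0.26 over 9 genes, with 0 past the fold. Hdac4, a class II deacetylase, was at 0.54 (0.38 to 0.70), with 925 tags with TSA and 456 with vehicle, and level at -0.0 in shared regions only. Hdac1, a class I deacetylase and a target of TSA, had 190 tags with TSA and 110 with vehicle (0.30, -0.04 to 0.66). The coactivator genes Ncoa2 and Ncoa3 were at 0.50 and 0.02, and Brd3 at 0.46. Housekeeping genes had a median of -0.04 over 22 genes, 15 of them below 0 and 0 past the fold, from -0.24 at Psmd4 to 0.39 at Psma7. With ratios centred on all tags in peaks, which lowers every gene by 0.17, so that genes at 0.02 to 0.15, such as Ncoa3 and Ing5, lie below 0, the medians of the FAP, matrix, senescence, immediate early, cell cycle and TGF-β lists also lay below 0, and that of all genes was -0.05. Immediate early genes had a median of 0.14 over 14 genes; Atf3 (0.48) and Nr4a2 (0.43) were higher, Jun (0.13) and Mcl1 (-0.14) were not.

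Markers of other lineages gave values in both directions. Pericyte and smooth muscle genes had a median of 0.49 over 5 genes with peaks in both, but of -0.05 in shared regions only. Lmod1, an actin nucleator of smooth muscle, had 247 tags with TSA and 57 with vehicle (1.61, 1.21 to 2.08), and Heyl, named above, is also in this list. Rgs5, the usual pericyte marker, was at 0.03, with 238 tags with TSA and 167 with vehicle. Among macrophage genes Spi1, the myeloid master regulator, had 217 tags with TSA and 36 with vehicle (2.08, 1.6 to 2.66), Csf3r had 101 tags with TSA only, and Fcgr1 was at 0.70; Tlr4 was at -0.37 and 7 of 14 had no peak. Spi1 was at 0.28 and Fcgr1 at 0.72 in shared regions only. Summed over the list, macrophage genes held 14.5 of every 10000 tags with TSA and 15.4 with vehicle. Among fibre genes Mylk2, a myosin light chain kinase, had 1261 tags with TSA and 554 with vehicle (0.70) and Casq1, a calcium store protein, 1557 and 887 tags in that order (0.33). Tpm2 (202 tags) and Tnni1 (83 tags), genes of contractile fibres, had TSA-only peaks, and Musk, the receptor of the neuromuscular junction, was at -0.36.

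Over all genes with 200 or more tags, 22 had no vehicle peak and 0 had no TSA peak. TSA-only windows with many tags were those of Bcar3 (443 tags), Ramp1, a receptor partner for calcitonin family peptides (394), Heyl (357) and Slc44a3 (353). Kcnab1, Cobll1, Cryzl2, Cdk15 and Nol4l followed with 284 to 335 tags. In these the vehicle list had no peak at all. Among genes with peaks in both, Nes was highest, with 1001 tags in 9 peaks with TSA and 56 tags in 1 peak with vehicle (3.65, 3.29 to 4.09). The TSA peaks of Nes lay at the promoter and between 10.02 and 15.865 kb from the start site, beyond the gene's end. Inka2 had 682 tags with TSA and 60 with vehicle (3.0), Nfatc2, a calcium-regulated transcription factor, 531 and 47 (2.99), and Col4a4, a basement membrane collagen, 415 and 40 (2.86). Kcnt2, Stk39, Tsga10, Ttll11 and Cacfd1 were also among the 10 highest, between 2.22 and 2.86. In shared regions only, Nes was at 0.59 and Inka2 at 1.13, whereas Nfatc2 was at -0.28 and Stk39 at -1.06.

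The lowest genes had modest counts. D630023F18Rik had 72 tags with TSA and 141 with vehicle (-1.44, -1.88 to -1.03). Cp, the copper oxidase ceruloplasmin, had 283 tags with TSA and 407 with vehicle (-1.0, -1.23 to -0.78), and was at -0.61 in shared regions only. Iftap, Olfr432, Bend6, Stmn3, Ect2, Eps15 and Dpm2 lay between -0.93 and -0.58. Eps15 was at 0.17 and Iftap at 0.21 in shared regions only.

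By length, the largest gains were at long genes. Tns1, which links integrins to actin, covered 57985 bp with TSA and 35890 bp with vehicle. Dab2ip covered 35340 and 17105 bp and Rgs3 25382 and 9873 bp in the same order, and both were past the fold at 0.67 and 0.92. Nav1, Ahdc1, Ski, Tshz2, Nfia, Itpkb and Lhfp gained between 12313 and 14553 bp. Nfia, a transcription factor gene, had the most tags of these, 13670 with TSA and 9880 with vehicle, so that relative tags were level at -0.01. The largest losses were much smaller, from 994 bp at Tnn to 699 bp at Dnaja1, and included Gm34296, Rbm39, Ifi205, Klhl9, Cp, Nsmaf, Tnnc2 and Slc30a7.

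Single regions showed both directions. The TSA-only region with the most tags, 583, lay inside Vps13d at chr4:145024381-145027616, with 129.0 tags per kb after division by 1.4, past the 5th percentile of vehicle peaks. TSA-only regions inside Tns1 (423 tags), Ror1, a Wnt receptor (413 tags), and Uap1 (343 tags) stayed below that limit, and one outside genes, 33621 bp from Ralgps2 (369 tags), was past it. The vehicle-only regions with the most tags lay inside Nfia, at chr4:97831131-97832324 (166 tags) and chr4:97789640-97790502 (118 tags), at the promoter of Tnfrsf1b, a TNF receptor (163 tags), and outside genes 33185 bp from Lekr1 (133 tags) and 30539 bp from Prg4 (131 tags). At Nfia, a gain of 13124 bp and the strongest losses thus occurred in the same gene.

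Long acetylated stretches extended further with TSA. Joining peaks within 10 kb gave 4665 domains with TSA and 3875 with vehicle, of which 205 and 116 spanned 20 kb or more and held 22.7% and 15.0% of tags. The longest was 124733 bp with TSA, over Morn1 and Ski, against 57850 bp with vehicle. Of the TSA domains, 1098 overlapped no vehicle domain and 106 joined at least 2. The domains with the most tags were largely common: 7 of the TSA top 10 overlapped a domain of the vehicle top 10, at Itpkb, Hspg2, Mcl1 with Adamtsl4, Rusc2, Lmna, Zmynd8 and a stretch outside genes nearest to Cstad. The Ski domain (12102 tags with TSA, 7204 over 4 vehicle domains), the Tns1 domain (6010 and 3289 tags) and the Ahdc1 domain (5436 and 2575 tags) were the TSA domains that did not. In the vehicle top 10, Zfhx4 (4649 tags with TSA, 3910 with vehicle, -0.23) and Nfia (4448 and 3567 tags, -0.16) were relatively lower with TSA.

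Of 228 hairpins in the stretch, a peak lay in the hairpin and 10 kb either side for 92 with TSA and 79 with vehicle; 13 were TSA only (5.70%) and 0 vehicle only. The share of TSA-only windows among protein-coding genes was much the same, 276 of 5491 (5.03%), with 19 vehicle only. The mature sequences of 4 microRNAs with peaks nearby are given because of their known roles in vessels and matrix, with the seed (bases 2 to 8) in capitals and from RefSeq (GRCm38.p6).
mmu-miR-126a-3p: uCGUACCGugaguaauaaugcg
mmu-miR-130a-3p: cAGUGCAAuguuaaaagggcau
mmu-miR-29b-3p: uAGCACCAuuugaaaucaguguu
mmu-miR-29c-3p: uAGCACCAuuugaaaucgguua

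The last pair share the seed AGCACCA, and miR-29 is known to repress collagen messages; miR-126 is known from endothelium, where its hairpin lies in an intron of Egfl7. The Mir126a window had 1508 tags with TSA and 529 with vehicle (1.03, 0.89 to 1.18), and a TSA peak lay on the hairpin itself; this window overlaps those of Egfl7 and Agpat2, so part of its tags are theirs. Mir130a had 217 tags with TSA and 47 with vehicle (1.70, 1.26 to 2.21). Mir29b-2 and Mir29c, which are neighbours, had the same 129 tags with TSA and 65 with vehicle (0.50, 0.07 to 0.96). Mir199a-2 and Mir214, hosted by a transcript in Dnm3 and known from fibroblasts, had 1624 and 1377 tags with TSA, against 1288 and 1237 with vehicle (-0.15 and -0.33). No peak lay near the muscle microRNAs Mir206 and Mir133b, nor near Mir34a.

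Other readouts of the series were laid over the same regions. H3K9/14ac peaks of the old TSA library overlapped 18.7% of TSA-only regions, 6.17% of vehicle-only regions and 54.6% of shared regions. H3K9/14ac peaks of the old vehicle library, over the stretch up to chromosome 4 position 148075753, overlapped 19.8%, 5.33% and 55.8% of these classes in the same order. Regions with H3K27ac under TSA only were thus about as often marked by H3K9/14ac with TSA as with vehicle. At promoters the share of TSA-only regions with an old TSA H3K9/14ac peak was 73.5%, and away from promoters 6.82%. At single genes the marks could differ in direction. Relative H3K9/14ac tags were computed in the same way, with that mark's own median log2 ratio of -0.46 over shared regions. They were -1.04 at Gli2 (277 tags with TSA, 783 with vehicle), -0.64 at Twist2, -0.41 at Notch1 and -1.22 at Rxra. Adipogenic genes past the fold in H3K27ac were also below 0 where both H3K9/14ac lists had peaks. These were Aqp7 (-1.90, 106 tags with TSA, 549 with vehicle), Angptl2 (-1.27), Hsd11b1 (-0.73) and Agpat2 (-0.28). Prdm16 and Rbp7 lie past the end of the stretch that both H3K9/14ac lists cover and were not compared. On the same side as H3K27ac were Hoxd9 at 0.61 (610 tags with TSA, 549 with vehicle) and Fabp4 at 1.32.

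In young mdx mice of 1.5 months, treated alike, H3K27ac covered less with TSA rather than more. Over the stretch that all lists cover (up to chromosome 3 position 122275556), young peaks covered 5.99 Mb with TSA and 8.05 Mb with vehicle, against 6.91 Mb with TSA and 4.83 Mb with vehicle in old mice. Of the 2769 TSA-only regions of old FAPs there, 61.5% had a peak in the young vehicle library and 42.2% of all 3893 had one in the young TSA library. Both young libraries had a peak at 37.0% of them and neither at 32.6%. Most regions marked under TSA only in old FAPs thus had a peak in young vehicle FAPs, as did 66.9% of the vehicle-only and 96.4% of the shared regions. Notch1, which covered 10240 bp more with TSA in old FAPs, covered 3428 bp less in young ones (16244 bp with TSA, 19672 bp with vehicle). At Nes and Gli2 young TSA also covered more than young vehicle, by 1981 and 667 bp, and Ifi205 covered less at both ages, by 845 bp in old and 1884 bp in young FAPs.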

How the data were processed

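ChIP-seq peak lists of old mdx FAPs were used, 1 library each for TSA and vehicle; H3K9/14ac and young H3K27ac lists served as other readouts, and the 4 inputs were not used. The submitters' processing notes name Bowtie 0.12.7, MACS2 and HOMER among their tools, with build GRCm38. Per the file headers, each list was written by HOMER with a library set against itself, so the deposited tag counts per peak are whole numbers without normalization, not pooled. The lists break off within a line; the incomplete line was dropped. Library totals are not given in the sources used here.

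Peaks overlapping by 1 bp or more were merged (Python 3.11.15, pandas 2.3.3). Genes, promoters and microRNAs came from RefSeq tables of GRCm38.p6; 4558 of 5491 genes had a start site there, and for the other 933 either gene end was taken. Intervals are exact binomial at 95% (scipy 1.17.1). The steps were tested on simulated lists with known classes and tag ratio, in which shared peaks had the same positions and widths in both lists. That check thus covers the counting and centring, not wider, split or joined peaks or depth. Members and lists were chosen with earlier results of these data known. Genes named are up to 6 per list by tags plus those past the fold, the 10 highest and lowest by relative tags among genes with 200 or more tags, and the 10 largest gains and losses of length, beside 5 regions of each direction and the 10 domains with the most tags. The other list members named, the 10 highest among genes with peaks in both, the promoters marked in 1 library, the shared regions, the domains named outside the TSA top 10 and the microRNAs were chosen after their values were seen. Some genes that these rules name are not reported here.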

Additional observations from a re-analysis of the deposited data

Results flagged for a closer look

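The direction of the TSA difference was opposite at the 2 ages, and this was not tested, since each age and treatment had 1 library. In the common stretch, the length covered by H3K27ac peaks differed by 2.08 Mb in old mice and by -2.06 Mb in young mice, each as TSA minus vehicle. Among 195 listed genes in that stretch, 102 covered more bp with TSA in old mice and fewer in young mice, 0 showed the reverse, 25 were longer with TSA at both ages and 8 were shorter at both. The rest had no difference in length at either age or at both. Over all 3788 genes there, 2039 were longer with TSA in old mice and 1985 were shorter in young mice. Each of these directions, taken by itself, was thus common over the whole stretch and is not particular to the listed genes. Genes with both directions together were not counted over all genes. The old TSA library is also the one with more tags in shared regions, by 0.48 on the log2 scale, while the young ratio was -0.13; the part of depth in the difference was not tested.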

How the results depend on the processing

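Gained means TSA only and lost vehicle only. Restricting each list to its upper 50% by tags gave 1618 gained, 101 lost and 3715 shared regions; lists of equal length gave 1844 gained and 964 lost; joining peaks within 1 kb gave 1942 gained and 230 lost; the density limit left 694 gained when scaled by the tag ratio and 2222 when scaled per bp. That limit on both scales and the setting with shared regions only were chosen after seeing the data. Gained regions outnumbered lost ones under each of these, but the density limit removes hardly any lost region by its construction. The median log2 tag ratio of 0.48 was 0.65 over all tags, 0.51 over promoter regions and 0.23 per bp. Shared regions past the fold numbered 125 up and 128 down when centred on all tags, 1 up and 9 down per bp, and 90 up and 33 down with 50 or more tags in each library, so their direction rests on the scale. Gene windows past the fold downwards numbered 62 when centred on all tags, those past it upwards 157 in shared regions only, and the median over genes was -0.05 and 0.03 under these settings. Lists of equal length left 27 promoters marked with vehicle only. Stitching within 5 kb left 43 TSA and 15 vehicle domains of 20 kb or more. With promoters of 2.5 kb, 22.7% of gained, 16.4% of lost and 49.1% of shared regions lay at one; with lists of equal length 12.3% of lost and 46.8% of shared did. In the upper 50% by tags, H3K9/14ac peaks overlapped 25.1% (old TSA) and 25.8% (old vehicle) of gained and 52.9% (old TSA) of shared regions, and young TSA peaks overlapped 21.8% of lost and 90.7% of shared and young vehicle peaks 65.1% of gained regions.

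Of 713 recomputed values of 152 named genes, 445 stayed within the 95% interval of the value reported, 259 lay outside it, and 9 changed sign from past the fold: Twist2 to -0.21 in the upper 50% by tags and -0.10 in shared regions only, Eps15 to 0.17 with 2 kb flanks, in the upper 50% and in shared regions only, and, in shared regions only, Igfbp5 to -0.12, Iftap to 0.21, Nfatc2 to -0.28 and Stk39 to -1.06. The cause was not tested. No paired analysis was possible because each group has 1 library and no test was made, and for the same reason no library could be left out.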
